A study of Mus musculus with 6 samples.

Results

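The genes described here are the growth hormone receptor and the insulin-like growth factor (IGF) axis: *Ghr*, *Igf1*, *Igf2*, *Igf1r* and the binding protein genes *Igfbp2* to *Igfbp7*. They were chosen by gene symbol, are 10 of the 36144 symbols in the data, and all 10 had enough counts to be tested. They were measured in bulk poly-A RNA-seq of whole inguinal white adipose tissue (iWAT) from 6 female mice aged 10 weeks on a C57BL6/J background, 3 Cebpa_fl/fl and 3 Cebpa_ASKO, all chow-fed, in a random fed state and labelled as batch 1. Both genotypes carry 2 floxed *Cebpa* alleles and were bred as littermates. Cebpa_ASKO mice (Cebpa_fl/fl; AdipoQ-Cre+) also carry Cre under the *Adipoq* promoter, whereas Cebpa_fl/fl controls are AdipoQ-Cre-. Cre acts in cells that have switched on *Adipoq*, late in adipocyte differentiation, so the fibroblasts, vessels and immune cells of the fat pad keep the gene. Each mouse gave 1 library from its pair of inguinal depots, with the lymph nodes dissected away. The comparison asks how mRNA of this axis differs in fat whose adipocytes lack C/EBPα, a transcription factor of adipocyte differentiation.

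Growth hormone from the pituitary binds GHR, which signals through the kinase JAK2 and the transcription factor STAT5. In liver and in fat this pathway raises *Igf1*, and in adipocytes growth hormone promotes lipolysis. IGF1 and IGF2 act through the receptor IGF1R, and the IGF binding proteins hold them in plasma and tissue and are cut by proteases that release the ligand.

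The libraries held between 33141769 and 49477671 estimated counts. *Cebpa* was the check on the genotypes, with 470 ± 25.7 CPM (counts scaled to library size) in control tissue and 40.2 ± 4.81 CPM in Cebpa_ASKO (SD, n = 3 each), or 8.55% of control. Of 10 adipocyte markers, all had lower means in Cebpa_ASKO and 6 were called lower, and their summed level was 30286 to 37629 CPM in Cebpa_fl/fl and 9092 to 11201 CPM in Cebpa_ASKO. Of 10 skeletal muscle markers, 8 were called higher in Cebpa_ASKO, and their sum was 537 to 736 CPM in Cebpa_fl/fl and 1807 to 5273 CPM in Cebpa_ASKO. Libraries that stood apart were Cebpa_fl/fl 1, with 323 CPM of lymphocyte markers against 10.5 to 24.2 CPM in the others, and Cebpa_fl/fl 2, with the highest sums of fibroblast and progenitor markers (12636 CPM) and of macrophage markers (3259 CPM).

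*Ghr* was the member that edgeR called at an adjusted p below 0.05. It fell to 16.0% of control, a 6.26-fold lower level, and no Cebpa_ASKO library came near a control library. *Ghr* lies on the minus strand of chromosome 15 (chr15:3317760-3583492, GRCm38, GENCODE M21). Its mouse transcripts encode either the membrane receptor or, by splicing to another exon, the soluble growth hormone binding protein that circulates in plasma. The main transcripts of these forms are Ghr-201 (receptor) and Ghr-203 (binding protein). They share their first 811 coding bases and then diverge, and the junction is shown because it is what tells the forms apart. In the lines that follow, lower case is the last 24 shared coding bases and capitals are the form's own coding exon, at chr15:3325898-3325988 for Ghr-201 and at chr15:3327604-3327686 for Ghr-203, where it ends with the stop codon (minus strand, GENCODE M21 transcripts, GRCm38).
Ghr-201: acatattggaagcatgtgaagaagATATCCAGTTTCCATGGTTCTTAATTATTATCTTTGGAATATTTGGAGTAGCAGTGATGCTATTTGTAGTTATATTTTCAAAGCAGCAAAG
Ghr-203: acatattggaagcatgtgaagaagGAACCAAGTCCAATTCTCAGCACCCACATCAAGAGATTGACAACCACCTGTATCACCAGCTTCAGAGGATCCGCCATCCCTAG

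In the Cebpa_fl/fl libraries *Ghr* was at 558, 826 and 676 CPM, and in the Cebpa_ASKO libraries at 121, 107 and 101 CPM. The controls spread over a wider range than the Cebpa_ASKO libraries, and the genotypes did not overlap. Mean levels were 687 ± 134 and 110 ± 10.3 CPM (SD, n = 3 each). On the log2 scale the difference was -2.65 (SE 0.178, 95% interval -3.07 to -2.22, edgeR quasi-likelihood adjusted p = 0.000783 by Benjamini-Hochberg over 16069 genes). Without Cebpa_fl/fl 1 it was -2.78 and without Cebpa_fl/fl 2 it was -2.50, and *Ghr* was called in both fits. In whole tissue, fewer cells of a type and less RNA per cell cannot be told apart.

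With *Ghr*, 1 of the 10 members (10%) was called at an adjusted p below 0.05, beside 5.23% of all genes tested. The called member was lower, as were 3.84% of all genes tested, and no member was called higher, beside 1.39%. The genotypes did not overlap for 4 of the 10 members, or 40%, against 26.1% of all genes tested. *Ghr* and *Igf1* were lower without overlap (13.2% of all genes) and *Igf2* and *Igfbp2* higher without overlap (12.9% of all genes). Of the 10 members, 5 had a lower and 5 a higher mean in Cebpa_ASKO, with a median log2 fold change of -0.0025 beside 0.025 over all genes. The interval plot by gene shows *Ghr* well apart from the other 9 members.

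**Figure D1:**
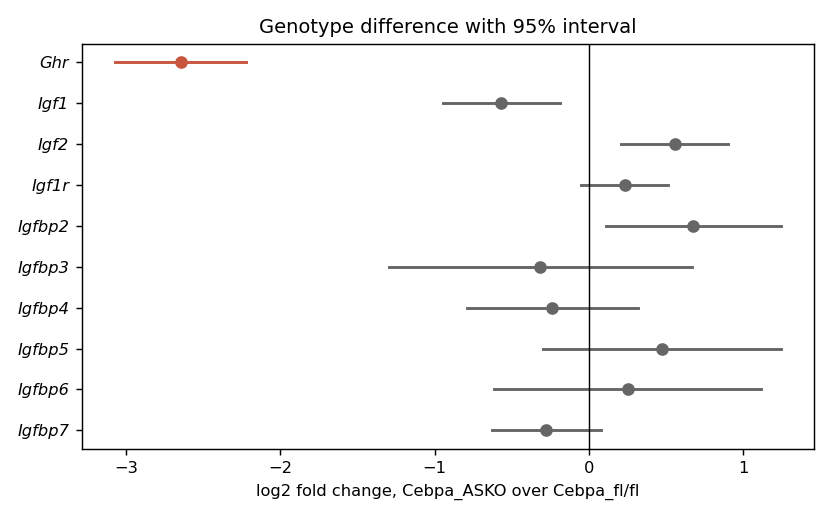
Log2 fold change of each of the 10 members in Cebpa_ASKO over Cebpa_fl/fl iWAT (points) with its 95% interval (bars), n = 3 per genotype. *Ghr*, the called member (coloured), lies between -3.07 and -2.22, and of the other members the intervals of *Igf1*, *Igf2* and *Igfbp2* leave out 0 without passing the adjusted threshold.

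The receptor and binding protein forms of *Ghr* were both lower, by similar proportions. In TPM, a share per transcript length that can be compared between genes, Ghr-201 was at 124, 211 and 160 in Cebpa_fl/fl and at 27.6, 27.4 and 26.5 in Cebpa_ASKO. Ghr-203 was at 114, 163 and 151 TPM in Cebpa_fl/fl and at 22.7, 23.2 and 23.0 TPM in Cebpa_ASKO. Neither form overlapped between genotypes, and Cebpa_ASKO kept 16.5% of the control mean of Ghr-201 and 16.1% of that of Ghr-203. The ratio of Ghr-203 to Ghr-201 TPM was 0.879 ± 0.0928 (SD, n = 3) in Cebpa_fl/fl and 0.846 ± 0.0214 (SD, n = 3) in Cebpa_ASKO (exact two-sided permutation, p = 0.5). With 3 libraries a genotype, no permutation p can go below 0.1. Ghr-201 made up 48.2% to 52.6% of *Ghr* TPM in Cebpa_fl/fl and 49.7% to 51.3% in Cebpa_ASKO, and the remainder was mostly Ghr-203. kallisto, which gave these values, divides reads that both forms share, so each form's level is an estimate.

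**Figure D2:**
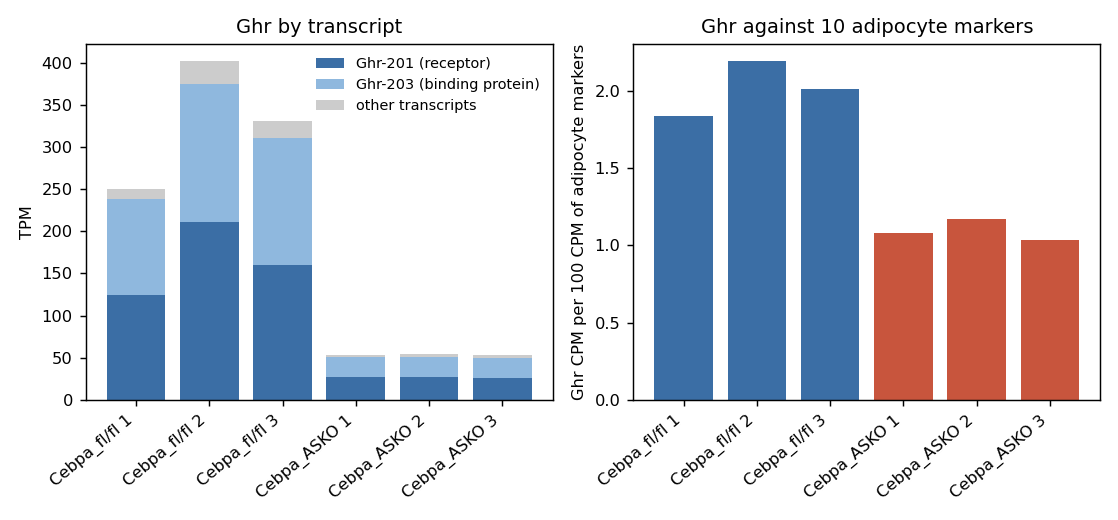
Left, TPM of *Ghr* in each library, stacked by transcript (Ghr-201, the receptor; Ghr-203, the soluble binding protein; all other transcripts). Right, *Ghr* CPM per 100 CPM of the 10 adipocyte markers summed: the controls lie at 1.84 to 2.20 and the Cebpa_ASKO libraries at 1.04 to 1.17, without overlap.

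Adipocyte markers were lower in the same libraries, with a median log2 fold change of -1.18 over the 10 markers and a range of -3.24 (*Cfd*, a secreted complement factor) to -0.43 (*Lep*, leptin). *Cfd* and *Adipoq*, or 2 of the 10, had a lower fold change than *Ghr*. Set against the summed markers, *Ghr* was at 1.84, 2.20 and 2.01 CPM per 100 CPM of markers in Cebpa_fl/fl and at 1.08, 1.17 and 1.04 in Cebpa_ASKO. On that scale the Cebpa_ASKO libraries were again all below the controls, at 54.5% of the control mean (exact two-sided permutation, p = 0.1, the lowest possible), and the log2 difference shrank from -2.65 to -0.88. The markers themselves differ in how far they fell, so the ratio depends on the markers summed. *Cfd*, which fell most, also weighed most, with a mean of 15453 CPM in Cebpa_fl/fl, where the 10 markers summed to 30286 to 37629 CPM. Its mean in Cebpa_ASKO was 1635 CPM, and a sum without *Cfd* was not tested.

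By pattern over the 6 libraries, *Atp2b4*, a calcium pump of the plasma membrane, and *Fam83a* were among the genes most like *Ghr* of 12671 compared. Likeness was the root mean square difference between log2 CPM values centred on each gene's mean, which was 0.135 for *Atp2b4* and 0.149 for *Fam83a*. Their log2 fold changes were -2.66 and -2.67.

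The ligand *Igf1* was lower and the ligand *Igf2* higher in every Cebpa_ASKO library than in any control, but neither passed the adjusted threshold. *Igf1* (chr10:87858265-87937042, plus strand) was at 206, 299 and 217 CPM in Cebpa_fl/fl and at 170, 153 and 164 CPM in Cebpa_ASKO. Its log2 fold change was -0.57 (SE 0.158, 95% interval -0.94 to -0.19, edgeR adjusted p = 0.106), for means of 241 ± 50.6 and 163 ± 8.61 CPM (SD, n = 3 each). Cebpa_fl/fl 2 held the highest *Igf1* value, and without it the log2 fold change was -0.39. *Igf2*, the imprinted growth factor of fetal life (chr7:142650766-142666816, minus strand), was low, at 4.59, 5.53 and 5.40 CPM in Cebpa_fl/fl and 7.54, 7.35 and 7.95 CPM in Cebpa_ASKO. The log2 fold change of *Igf2* was 0.56 (SE 0.145, 95% interval 0.21 to 0.90, edgeR adjusted p = 0.0872). DESeq2 called both ligands, with adjusted p-values of 0.0135 for *Igf1* and 0.0120 for *Igf2*. It also called more genes in all, 1796 of 17870 tested, against 840 of 16069 by edgeR. Over the other alternatives adjusted p-values reached 0.311 for *Igf1* and 0.249 for *Igf2*.

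The ratio of *Igf1* to *Igf2* RNA, over all transcripts of each gene, was lower in Cebpa_ASKO. The *Igf2* values include Igf2-208, annotated without a coding sequence, which held 33.6% to 58.3% of *Igf2* TPM in the libraries. In TPM, *Igf1* was 44.1, 55.7 and 46.2 times *Igf2* in the Cebpa_fl/fl libraries and 19.2, 19.9 and 24.6 times in the Cebpa_ASKO libraries. These ratios could not overlap, because *Igf1* was lower and *Igf2* higher in every Cebpa_ASKO library. The ratio is therefore no separate test. *Igf1* and *Igf2* summed to 140 ± 33.9 TPM in Cebpa_fl/fl and to 95.04 ± 9.20 TPM in Cebpa_ASKO (SD, n = 3 each), 68.0% of control, with no overlap (exact two-sided permutation, p = 0.1). Nearly all of this sum was *Igf1*, so it restates the *Igf1* values.

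*Igf1* transcripts differ at both ends of their coding sequence. The start sets which leader, or signal peptide, the precursor carries, and the end sets the E peptide that follows the mature hormone; a 52-base exon gives the Eb form, also called mechano growth factor. The stretches that separate these forms are shown because the transcript shares below rest on them. Capitals mark the coding bases at which the forms part, and lower case 12 adjoining coding bases that both share; Igf1-203 goes on after its 52-base exon into the end exon of Igf1-202. The longer leader of Igf1-202 lies at chr10:87859350-87859412 and the shorter leader of Igf1-205 at chr10:87861371-87861385, and of the ends, that of Igf1-202 lies at chr10:87930675-87930734 and the 52-base exon of Igf1-203 at chr10:87915298-87915349 (plus strand, GENCODE M21 transcripts, GRCm38).
Igf1-202 leader: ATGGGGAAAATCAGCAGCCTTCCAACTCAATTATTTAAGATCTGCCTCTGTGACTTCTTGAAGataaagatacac
Igf1-205 leader: ATGACCGCACCTGCAataaagatacac
Igf1-202 end: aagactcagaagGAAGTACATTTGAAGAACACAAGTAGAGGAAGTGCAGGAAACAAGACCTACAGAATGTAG
Igf1-203 exon: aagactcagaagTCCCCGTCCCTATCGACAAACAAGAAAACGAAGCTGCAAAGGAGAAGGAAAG

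Transcripts with the 52-base exon (Igf1-203 and Igf1-206) took 54.0%, 53.2% and 52.7% of *Igf1* TPM in the Cebpa_fl/fl libraries and 42.5%, 49.0% and 47.2% in the Cebpa_ASKO libraries. All Cebpa_ASKO shares were below all control shares (exact two-sided permutation, p = 0.1). By share of estimated counts, where long transcripts weigh more, the same transcripts took 18.4% ± 0.875 in Cebpa_fl/fl and 15.4% ± 2.55 in Cebpa_ASKO (SD, n = 3 each), again without overlap (exact two-sided permutation, p = 0.1). Of the single transcripts, the share of Igf1-206 was lower by 6.02 percentage points (40.4% to 34.4% of TPM) and that of Igf1-205 higher by 4.55 percentage points (21.7% to 26.3%), each with an exact permutation p of 0.1 and 0.3 after Benjamini-Hochberg adjustment over 6 transcripts. In estimated counts these differences were -1.82 and 0.873 percentage points. Transcripts with the longer leader (Igf1-202 and Igf1-203) took 35.2% ± 1.92 of TPM in Cebpa_fl/fl and 36.1% ± 0.622 in Cebpa_ASKO (SD, n = 3 each), which overlapped.

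*Igf1r*, the receptor for both ligands (chr7:67952827-68233668, plus strand), was at 20.9, 26.1 and 23.9 CPM in Cebpa_fl/fl and at 24.7, 28.6 and 30.1 CPM in Cebpa_ASKO. The genotypes overlapped, and the log2 fold change was 0.23 (95% interval -0.05 to 0.51, edgeR adjusted p = 0.346). In TPM, *Ghr* was 116 to 121 times *Igf1r* in Cebpa_fl/fl and 12.8 to 20.3 times in Cebpa_ASKO (exact two-sided permutation, p = 0.1). As *Igf1r* overlapped, this ratio restates the lower *Ghr* and is no separate result.

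In TPM summed over all transcripts of a gene, coding or not, the members spanned more than 2 orders of magnitude in control iWAT. *Igfbp7* (434 ± 94.9 TPM), *Igfbp6* (406 ± 152 TPM), *Ghr* (328 ± 76.2 TPM), *Igfbp4* (254 ± 96.4 TPM), *Igfbp5* (249 ± 111 TPM) and *Igf1* (137 ± 33.6 TPM) came first, and each overlapped the next in order (SD, n = 3). *Igfbp3* (27.4 ± 18.1 TPM), *Igfbp2* (5.47 ± 0.967 TPM) and *Igf2* (2.79 ± 0.315 TPM) followed, each apart from the gene above it. *Igf1r* (2.74 ± 0.583 TPM) was last and overlapped *Igf2*. In Cebpa_ASKO, *Ghr* dropped from the third to the sixth place, at 53.9 ± 0.486 TPM, below *Igf1* at 90.7 ± 9.29 TPM, and its range was apart from both neighbours. *Igfbp6* (508 ± 257 TPM), *Igfbp7* (371 ± 5.45 TPM) and *Igfbp5* (356 ± 98.7 TPM) led in Cebpa_ASKO and overlapped, while the last places, *Igfbp3*, *Igfbp2*, *Igf2* and *Igf1r*, kept their order.

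**Figure D3:**
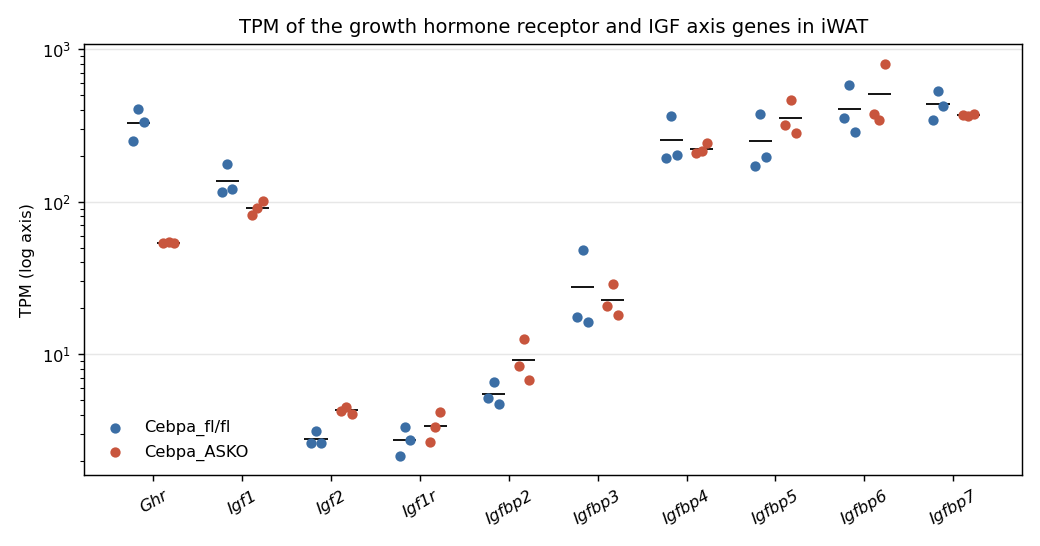
TPM (log axis) of each member in each library of Cebpa_fl/fl (blue) and Cebpa_ASKO (red) iWAT, with the mean of 3 libraries as a line. *Ghr* is the member with a wide gap between genotypes (250 to 402 against 53.4 to 54.4 TPM), *Igf1*, *Igf2* and *Igfbp2* are apart by narrower gaps, and the rest overlap.

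None of the 6 binding protein genes was called by edgeR or DESeq2, and 1 of them, *Igfbp2*, had an unadjusted p below 0.05 and genotypes that did not overlap. *Igfbp2* (chr1:72824503-72852474, plus strand), a binding protein secreted by preadipocytes among other cells, was at 4.72, 5.30 and 4.26 CPM in Cebpa_fl/fl and at 8.11, 9.42 and 5.32 CPM in Cebpa_ASKO. The lowest Cebpa_ASKO library was barely above the highest control, and the log2 fold change was 0.68 (SE 0.238, 95% interval 0.11 to 1.25, edgeR adjusted p = 0.180). Its neighbour *Igfbp5* (chr1:72857932-72874884, minus strand), 5457 bases away and facing it tail to tail, was at 904, 1754 and 965 CPM in Cebpa_fl/fl and at 1657, 2136 and 1247 CPM in Cebpa_ASKO. IGFBP5 is a binding protein of extracellular matrix that muscle and fibroblasts also make. Here Cebpa_fl/fl 2 lay among the Cebpa_ASKO libraries, and the log2 fold change was 0.48 (95% interval -0.30 to 1.25, edgeR adjusted p = 0.487) with it and 0.83 without it. Cebpa_ASKO 2, the library highest in *Igfbp5*, was also the highest in skeletal muscle markers (5273 CPM). The part of those markers in the *Igfbp5* values was not tested.

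Cebpa_fl/fl 2, the library highest in fibroblast and progenitor markers, was also the highest control for each of the other binding proteins. *Igfbp3*, the main carrier of IGF1 in plasma (chr11:7206086-7213923, minus strand), was at 35.2, 85.7 and 30.3 CPM in Cebpa_fl/fl and at 40.9, 50.3 and 30.6 CPM in Cebpa_ASKO. *Igfbp4* (chr11:99041244-99054392, plus strand), which blocks IGF action until PAPP-A cuts it, was at 368, 621 and 350 CPM in Cebpa_fl/fl and at 396, 356 and 385 CPM in Cebpa_ASKO. Both overlapped, and leaving out Cebpa_fl/fl 2 turned the log2 fold change of *Igfbp3* from -0.31 (95% interval -1.30 to 0.67, edgeR adjusted p = 0.757) to 0.30 and that of *Igfbp4* from -0.24 (95% interval -0.79 to 0.32, edgeR adjusted p = 0.655) to 0.06. *Igfbp6* (chr15:102144362-102149511, plus strand), which prefers IGF2, was at 295, 432 and 225 CPM in Cebpa_fl/fl and at 312, 250 and 572 CPM in Cebpa_ASKO. Cebpa_ASKO 3 alone was above all controls, and without it the log2 fold change of *Igfbp6* went from 0.25 (95% interval -0.61 to 1.12, edgeR adjusted p = 0.781) to -0.20. *Igfbp7* (chr5:77349240-77408041, minus strand), a vascular and stromal protein of low IGF affinity, was at 290, 400 and 334 CPM in Cebpa_fl/fl and at 311, 267 and 269 CPM in Cebpa_ASKO. Its genotypes overlapped, with a log2 fold change of -0.28 (95% interval -0.63 to 0.08, edgeR adjusted p = 0.370).

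Added together per length over all transcripts, the 6 binding protein genes were at 1085, 1908 and 1134 TPM in Cebpa_fl/fl and at 1302, 1432 and 1728 TPM in Cebpa_ASKO. These sums include Igfbp4-203, which is annotated without a coding sequence. It held 46.0% to 48.9% of *Igfbp4* TPM in the 6 libraries, but 13.1% to 14.3% of its estimated counts. The genotypes overlapped, and Cebpa_ASKO was at 108% of the control mean (1376 ± 461 and 1487 ± 219 TPM, SD, n = 3 each, exact two-sided permutation, p = 0.7). Set against the ligands, however, these gene sums were 9.24, 10.7 and 9.21 times the sum of *Igf1* and *Igf2* in Cebpa_fl/fl and 15.1, 15.1 and 16.6 times in Cebpa_ASKO. These ratios were tight within each genotype, including Cebpa_fl/fl 2, and did not overlap (exact two-sided permutation, p = 0.1, the lowest possible). The share of *Igfbp4* in the summed binding protein TPM was 17.8%, 19.1% and 17.9% in Cebpa_fl/fl and 16.0%, 14.9% and 14.1% in Cebpa_ASKO, without overlap (exact permutation p = 0.1, or 0.45 after Benjamini-Hochberg adjustment over the 6 shares). The shares of the other binding proteins overlapped. *Igfbp5* took 16.2% to 32.6% and *Igfbp6* took 24.04% to 46.5% in the Cebpa_ASKO libraries, a wider spread than in the controls (15.9% to 19.7% and 25.4% to 32.4%).

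**Figure D4:**
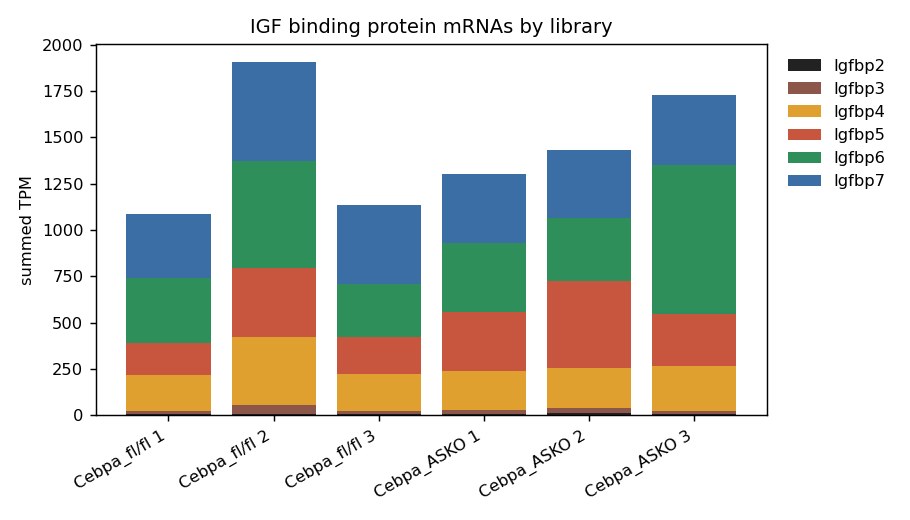
Summed TPM of the 6 binding protein genes in each library, stacked by gene. Cebpa_fl/fl 2 has the tallest column (1908 TPM), the Cebpa_ASKO columns (1302 to 1728 TPM) lie between it and the other controls, and *Igfbp6* is the widest band of Cebpa_ASKO 3 (804 TPM).

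Of 49 other genes of the pathway, 2 were not analysed here, 11 had too few counts and 36 were tested. Of these, 5 were called (13.9%, beside 5.23% of all genes tested) and the median log2 fold change was 0.02. Downstream of the receptor, *Cish*, an inhibitor of cytokine receptors that STAT5 switches on, rose while *Ghr* fell. *Cish* was at 16.6, 20.5 and 30.6 CPM in Cebpa_fl/fl and at 47.4, 64.1 and 47.4 CPM in Cebpa_ASKO, without overlap. The log2 fold change of *Cish* was 1.23 (SE 0.244, 95% interval 0.65 to 1.81, edgeR adjusted p = 0.0386). This call held in 10 of 17 settings and was lost when any library but Cebpa_fl/fl 3 was left out, with adjusted p-values up to 0.133. Summed markers of skeletal muscle and of mammary epithelium were also higher in every Cebpa_ASKO library than in any control. Their part in the *Cish* values was not tested. The RefSeq promoter windows (250 bases before to 50 after a start, GRCm38.p6) were searched on both strands for TTCNNNGAA, the core that STAT5 binds. *Cish* had 2 adjoining matches just after a start (chr9:107296659-107296678, plus strand), shown with the matches in capitals as an example of paired matches.
Cish: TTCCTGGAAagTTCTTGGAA

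Matches were not particular to the gene that rose. *Igfals*, which fell, also had 2 matches, *Bcl6* had 4, and *Socs3*, *Prlr* and *Ghrl* had 1 each. The same search found TTCNNNGAA in none of the windows of the 10 members (1 to 4 windows a gene), against 8.3% of 32851 windows genome-wide. TTGCNNAA, the core of the site that C/EBP proteins bind, was likewise in none of the members' windows and in 5.8% of all windows. The members have too few windows for an absence of matches to show a difference from these genome-wide shares. The searches cover only the letters within the windows around the listed starts.

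The rest of the signal transduction list was not called. *Jak2* had a log2 fold change of 0.35 (edgeR adjusted p = 0.185), *Stat5a* of 0.34 (edgeR adjusted p = 0.527) and *Stat5b* of 0.18 (edgeR adjusted p = 0.306). *Socs2*, a growth hormone target that limits GHR signalling, averaged 24.8 ± 6.23 CPM in the controls and 26.3 ± 10.6 CPM in the knockout (SD, n = 3 each; log2 fold change 0.09, 95% interval -0.65 to 0.83, edgeR adjusted p = 0.922). In all, 1 of the 16 genes of this list was called higher and none lower, with a median log2 fold change of 0.19.

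Among insulin and IGF2 receptors and adaptors, 1 of 9 was called higher and 1 lower, with a median log2 fold change of -0.38. *Insr*, the insulin receptor, which can pair with IGF1R, was at 107, 110 and 132 CPM in Cebpa_fl/fl and at 58.3, 59.8 and 64.7 CPM in Cebpa_ASKO. It fell by 0.93 on the log2 scale (SE 0.108, edgeR adjusted p = 0.00516) and the genotypes were far apart. *Grb14*, an adaptor that inhibits the insulin receptor, rose from 9.62, 6.61 and 7.33 CPM to 34.9, 28.0 and 14.8 CPM, a log2 fold change of 1.72 (SE 0.323, edgeR adjusted p = 0.0329). That call held in 11 of 17 settings and was lost on leaving out any library but Cebpa_ASKO 3, with adjusted p-values up to 0.122. *Igf2r*, the receptor that clears IGF2, was at 93.5 ± 11.9 and 120 ± 12.04 CPM (SD, n = 3 each, log2 fold change 0.36, edgeR adjusted p = 0.176). The insulin receptor substrates *Irs1* and *Irs2* had log2 fold changes of -0.41 (edgeR adjusted p = 0.408) and -0.43 (edgeR adjusted p = 0.235).

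*Igfals* encodes the acid-labile subunit, which joins IGFs and IGFBP3 into the long-lived complex of plasma and is known chiefly from liver. It was at 33.5, 42.1 and 37.8 CPM in Cebpa_fl/fl and at 5.17, 5.44 and 10.4 CPM in Cebpa_ASKO. Every Cebpa_ASKO library was far below the controls, and the log2 fold change was -2.43 (SE 0.285, 95% interval -3.11 to -1.75, edgeR adjusted p = 0.00541). Of 10 hepatocyte markers, 5 were tested and 2 called lower, and the sum of all 10 was 1552 to 2965 CPM in Cebpa_fl/fl and 276 to 759 CPM in Cebpa_ASKO, nearly all of it *Cyp2e1*, which adipocytes also express. The markers called lower were *Alb* (albumin) and *Serpina1a*. *Alb* was at 24.6, 32.5 and 31.5 CPM in Cebpa_fl/fl and at 5.48, 5.41 and 0.988 CPM in Cebpa_ASKO, a log2 fold change of -2.91 (edgeR adjusted p = 0.0374), and so was lower in the same libraries as *Igfals*. *Serpina1a* had 33, 22 and 29 counts in Cebpa_fl/fl and 0 in each Cebpa_ASKO library, and *Apoa1* had 15, 17 and 22 counts against 0, 5 and 3. *Fgb*, which was also tested, was not lower. It was at 14.9, 14.9 and 11.8 CPM in Cebpa_fl/fl and at 13.8, 25.9 and 2.76 CPM in Cebpa_ASKO (log2 fold change 0.03, edgeR adjusted p = 0.986). *Tat* had 2, 0 and 1 counts in Cebpa_fl/fl and 1, 1 and 4 in Cebpa_ASKO. *Hnf4a*, *Apob*, *Cps1* and *Ttr* had 0 counts in every Cebpa_fl/fl library and 0 to 2 in the Cebpa_ASKO libraries. The part of these markers in the *Igfals* values was not tested.

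Of the 7 proteases and protease inhibitors, *Adam12*, a metalloprotease able to cut IGFBP3 and IGFBP5, was called lower and none higher, with a median log2 fold change of -0.06. *Adam12* was at 61.5, 57.5 and 61.7 CPM in Cebpa_fl/fl and at 27.1, 31.1 and 35.2 CPM in Cebpa_ASKO. These groups were tight and apart (log2 fold change -0.95, SE 0.110, edgeR adjusted p = 0.00527). *Pappa*, whose product PAPP-A cuts IGFBP4, was low, at 0.913, 3.12 and 1.93 CPM in Cebpa_fl/fl and 3.55, 4.21 and 4.29 CPM in Cebpa_ASKO (log2 fold change 1.02, edgeR adjusted p = 0.248).

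**Figure D5:**
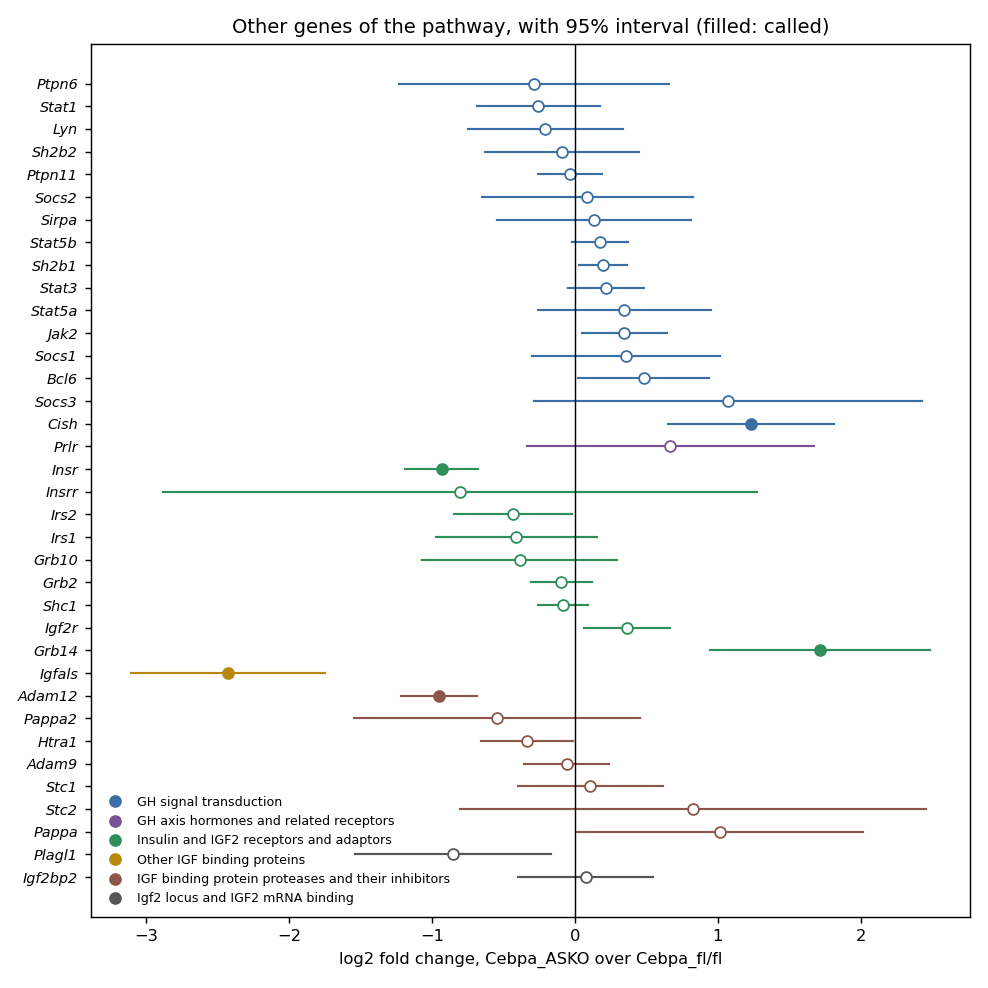
Log2 fold change of each tested gene of the other pathway lists in Cebpa_ASKO over Cebpa_fl/fl iWAT with its 95% interval, coloured by list, filled where called. *Igfals* (-2.43), *Adam12* (-0.95) and *Insr* (-0.93) lie to the left and *Cish* (1.23) and *Grb14* (1.72) to the right.

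Transcripts of the hormones upstream, of the receptors *Ghsr* and *Sstr2* and of the binding protein *Igfbp1* were at or near the limit of detection. *Ghrl* (ghrelin) had 2 to 5 counts in each library. *Ghrh*, *Ghsr*, *Sst*, *Sstr2* and *Igfbp1* had 0 counts in all 6 libraries, where 3 counts correspond to 0.0606 to 0.0905 CPM of a library, and growth hormone itself (*Gh*) had 10 counts in Cebpa_fl/fl 1 and 0 in the others. The related prolactin receptor *Prlr* was abundant and variable, at 415, 180 and 618 CPM in Cebpa_fl/fl and 645, 770 and 513 CPM in Cebpa_ASKO, with overlap (log2 fold change 0.67, 95% interval -0.33 to 1.67, edgeR adjusted p = 0.451). Mammary epithelium markers, from ducts that cross this female depot, summed to 901 to 2029 CPM in Cebpa_fl/fl and 2625 to 2759 CPM in Cebpa_ASKO. The mean was higher for 10 of 10, but none of these markers was called. Their part in the *Prlr* values was not tested.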

How the data were processed

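Whole iWAT RNA from 3 Cebpa_fl/fl and 3 Cebpa_ASKO mice was analysed, and groups and replicate numbers came from the sample labels. Per library the authors deposited an estimated count and a TPM for every transcript, and TPM summed by gene symbol. The submitters' processing notes name kallisto 0.44.0 and the builds GRCm38.p6 and GRCh38.p12, and the transcript annotation is not given in the sources used here. Transcripts were matched by identifier to GENCODE M21 (116816 of 118489, or 98.6%), estimated counts were summed by symbol and rounded, and all transcripts of the 10 members matched. *H19* and *Igf2os* of the pathway lists were not analysed here.

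Genotypes were compared by the quasi-likelihood test of edgeR after TMM scaling and its default count filter, and p-values were adjusted by Benjamini-Hochberg over 16069 genes and called below 0.05. CPM values are TMM-normalized. SE was the absolute log2 fold change over the square root of F, with 95% intervals from the t distribution with edgeR's degrees of freedom. The study's methods name DESeq2, run here as an alternative. Sums, ratios and shares were tested by exact two-sided permutation over all 20 arrangements, whose smallest p is 0.1. Transcripts with at least 5% of a gene's TPM in any library were tested. Replicates were separate mice and were far from identical in counts (chi-square over degrees of freedom 27.0 to 240). The limit of 3 counts covers counting error only.

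Alternatives were DESeq2, its size factors in edgeR, total-count scaling, other count filters (at least 1 count, or at least 10 in every library), a transcript length offset, limma on log2(TPM + 1) with and without a filter (TPM of 1 or more in 3 libraries) and on log2(TPM + 0.1) with it, a replicate block, and each library left out. A pseudocount understates changes of low genes. The ratios of *Ghr* to adipocyte markers, of *Ghr* to *Igf1r*, of binding proteins to ligands and of *Igf1* to *Igf2*, and the grouping of *Igf1* transcripts, were added after seeing the data. The procedure was tested on simulated counts with 200 changed genes. At an adjusted p below 0.05 it recovered 49.45% of changes of 1 log2 unit and 73.39% of changes of 2 log2 units. Because recovery was incomplete, a real difference of a member can go uncalled. Of the genes it called, 7.407% were unchanged ones, more than the threshold of 0.05 aims at, so a called gene can be a false call. Members and lists were chosen with earlier results of these data known. Named genes were the members, the 3 genes most like *Ghr* (mean log2 CPM of at least 1, prior count 2, no predicted or Rik genes; 1 of them is not reported here), the called pathway genes and a fixed set of others, and *Cebpa*, while markers, *Prlr*, *Plagl1*, *Stc2* and hormone genes were named after their values were seen. Versions were edgeR 4.0.16, DESeq2 1.42.0 and limma 3.58.1 in R 4.3.3, with scipy 1.17.1 and pandas 2.3.3 in Python 3.11.15.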

Additional observations from a re-analysis of the deposited data

How the results depend on the processing

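*Ghr* was called in all 17 settings, with log2 fold changes from -2.78 to -2.50 and adjusted p-values of at most 0.0157, and so was *Igfals*. DESeq2 called 3 of the 10 members, *Igf1* and *Igf2* besides *Ghr*, and it called 1796 of all 17870 genes it tested. The reported fit called 840 of 16069. In the remaining 15 alternatives *Ghr* was the member called. The number of genes called was 840 in the reported fit, 1796 with DESeq2, 359 with limma on log2(TPM + 1) without a filter and 311 to 922 on leaving out a library (311 without Cebpa_ASKO 1). Of the pathway genes, 5 were called as reported, 2 with limma without a filter and 3 to 4 on leaving out a library. *Insr* and *Adam12* were called in 16 of 17 settings each, and limma without a filter was the exception. By estimated counts in place of TPM, the differences in share were 0.873 percentage points for Igf1-205 and -1.82 for Igf1-206. The cause of these changes was not tested.

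The labels do not say whether the replicate numbers pair the samples. Deviations from genotype means correlated at 0.06, 0.002 and -0.289 for same-numbered libraries and at -0.214 to 0.221 for the others. So few libraries cannot settle whether pairs exist. With a replicate block, 370 genes, 1 member (*Ghr*, log2 fold change -2.63, adjusted p = 0.0157) and 3 pathway genes were called. By the ratio of geometric means, the binding protein sum was 111% and the ligand sum 69.0% of control. That ratio is the same however the libraries are paired, so it does not test pairing. With 3 libraries a genotype, intervals of the binding protein genes span up to 1 log2 unit on either side, so differences of that size could be missed.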

Other observations

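*Igf1* and the binding proteins are made by stromal cells as well as adipocytes, and their values were also set against the sum of 12 fibroblast and progenitor markers, a ratio chosen after seeing the data. *Igf1* was at 2.79, 2.36 and 3.01 CPM per 100 CPM of these markers in Cebpa_fl/fl and at 1.88, 1.78 and 1.52 in Cebpa_ASKO. *Igfbp4* was at 4.98, 4.92 and 4.87 in Cebpa_fl/fl and at 4.37, 4.14 and 3.58 in Cebpa_ASKO. For both genes the Cebpa_ASKO values were below all controls (exact two-sided permutation, p = 0.1, the lowest possible), and the high *Igfbp4* value of Cebpa_fl/fl 2 was no longer apart from the other controls. On this scale *Igfbp2*, *Igfbp3*, *Igfbp5*, *Igfbp6* and *Igfbp7* overlapped between genotypes.

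*Plagl1*, a zinc finger gene known to act on the *Igf2* locus, averaged 20.9 ± 8.6 CPM in the controls and 11.6 ± 0.920 CPM in the knockout (SD, n = 3 each), without overlap, and did not pass the threshold (log2 fold change -0.85, edgeR adjusted p = 0.164). *Stc2*, whose product inhibits PAPP-A, varied widely between controls (87.6 ± 69.0 CPM, SD, n = 3) and overlapped Cebpa_ASKO (155 ± 17.8 CPM, SD, n = 3).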
